A study of Mus musculus with 4 samples.

Results

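Hox genes encode homeodomain transcription factors that lie in 4 clusters, Hoxa, Hoxb, Hoxc and Hoxd, on separate chromosomes. Within a cluster the genes stand in the order in which they are used along the body axis. Low paralog numbers act at the head end, and high numbers act at the tail end, in the limbs and in the genital ducts. Adult connective tissue cells are known to keep part of this positional code, and the products bind DNA together with TALE homeodomain cofactors of the Pbx and Meis families. The Hox genes were taken here by symbol: every probe set that the platform's annotation assigns to 1 gene named Hoxa, Hoxb, Hoxc or Hoxd plus a number was used, with 1 probe set per gene, the one of highest mean log2 signal. This gave 31 genes of 12393 measured (9 Hoxa on chromosome 6, 9 Hoxb on chromosome 11, 6 Hoxc on chromosome 15 and 7 Hoxd on chromosome 2). Hox genes without a single-gene probe set were not analysed here.

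RNA of the testes of adult mice was hybridised to Affymetrix 430A arrays, 1 array for each of 4 groups. The groups were seminiferous tubules of XX/Sry males, tubules of W/Wv males, whole testis of XX/Sry males and whole testis of W/Wv males. XX/Sry males have 2 X chromosomes and a transgene of Sry, the testis-determining gene of the Y chromosome. W/Wv males, bought as a cross of WB and B6 stocks per the labels, have a pair of mutant alleles of the receptor gene Kit. Testes of both genotypes lose most germ cells. For the tubule groups the tunica was taken off and the tissue was digested with collagenase (5 mg/ml, 40 min) and strained. The labels do not state the strain of the XX/Sry males, nor how many animals went into an array. With 1 array a group there is no replicate, and every fold below is a ratio of 2 single arrays.

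Labels and tissue were checked on genes outside the Hox set. Xist, the X inactivation RNA, had signals of 1002.1 in XX/Sry and 76.7 in W/Wv tubules, and of 3099 and 130.6 in whole testis. Eif2s3y of the Y chromosome had 28.2 and 9.5 in XX/Sry tubules and whole testis, against 580.3 and 794.7 in W/Wv. Kit, which the W and Wv alleles mutate, had 569.4 in XX/Sry and 139.3 in W/Wv tubules, while it had 892.5 and 256.1 in XX/Sry and W/Wv whole testis. All 12 Sertoli cell markers measured exceeded background on both tubule arrays. The spiked hybridisation controls of the W/Wv tubule array were brighter than elsewhere. Their median deviation on the log2 scale was -0.17 in XX/Sry tubules, 0.46 in W/Wv tubules, -0.18 in XX/Sry whole testis and -0.09 in W/Wv whole testis, and its part in the results was not tested.

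Most Hox genes were near or below the background of the arrays. Each signal was set against the brightest of 27 bacterial control probe sets that have no target in the sample, called the bound below. It was 61 and 46.1 for XX/Sry and W/Wv tubules, and 63.9 and 76.3 for XX/Sry and W/Wv whole testis. Above it lay 7 of 31 Hox genes in XX/Sry tubules (22.6%), where 73.7% of all genes did. In W/Wv tubules 6 Hox genes did (19.4%), against 78.6% of all genes. In XX/Sry whole testis it was 12 (38.7%), against 75.6% of all genes, and in W/Wv whole testis 13 (41.9%), against 76.4%. On both tubule arrays 3 of 31 Hox genes were above the bound (all genes, 69.8%), and on both whole testis arrays 10 of 31 (all genes, 69.9%). Hoxc6, Hoxd8 and Hoxd9 belonged to both sets. For Hoxc6 this rests on a probe set of the kind that may cross-hybridise. Its other 2 probe sets had 61 and 6.8 in XX/Sry tubules and did not exceed the bound there.

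**Figure D1:**
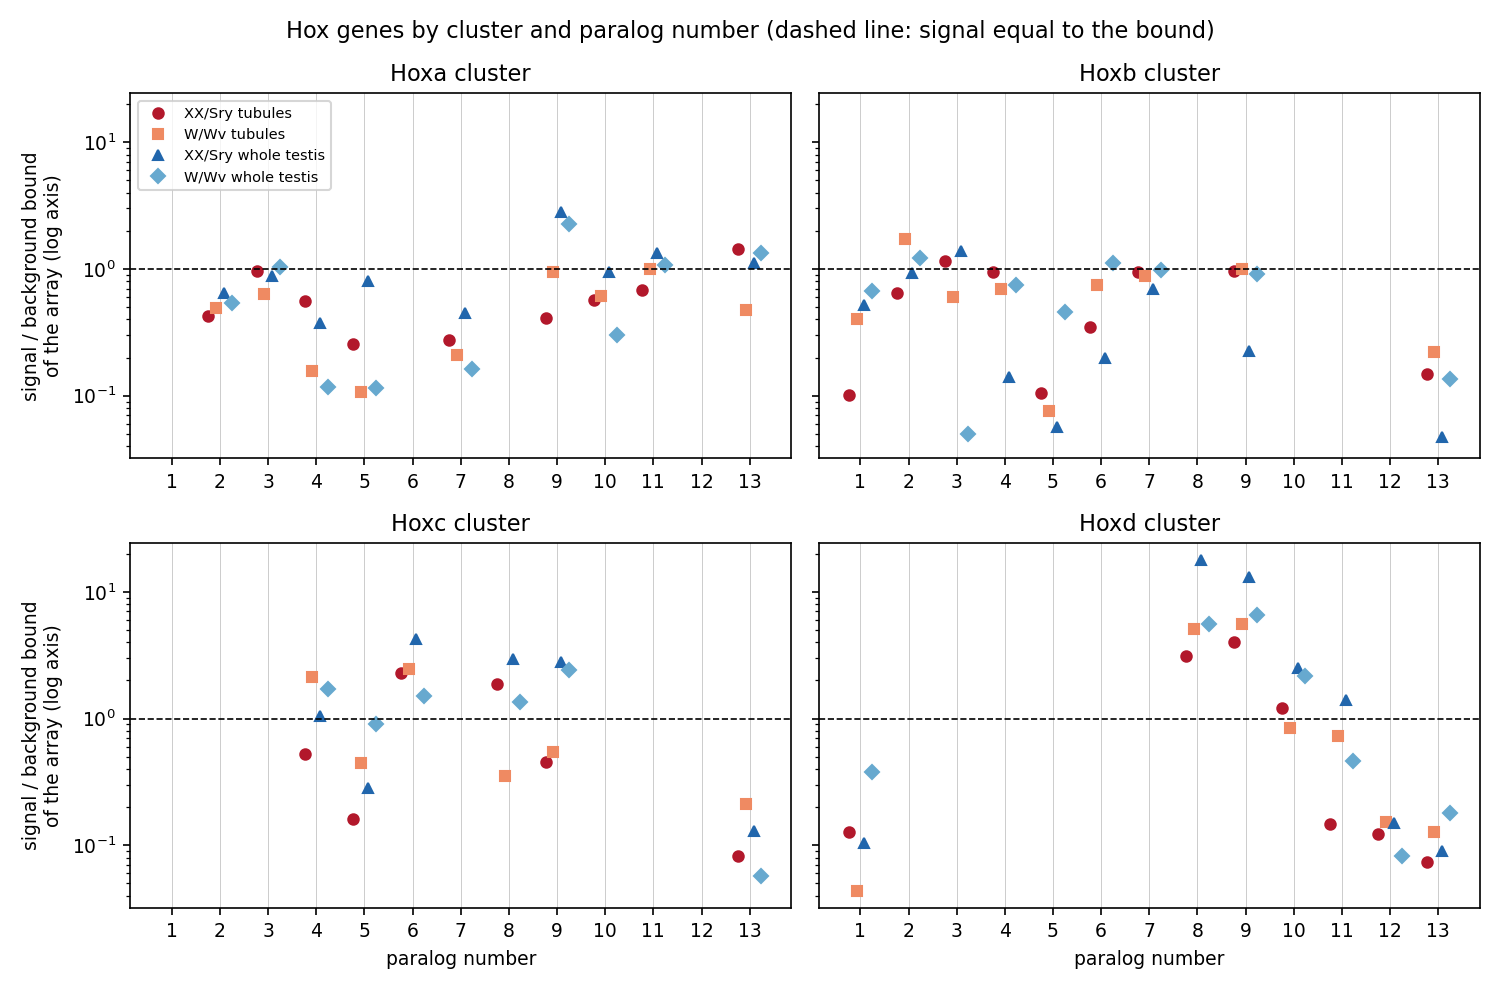
Signal of each of the 31 Hox genes divided by the background bound of its array (log axis) against paralog number, 1 panel per cluster, 1 point per array. Points over the dashed line exceed the bound: all points of Hoxc6, Hoxd8 and Hoxd9 do, and no Hoxb gene has more than 2 points over the line.

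By cluster, 4 of 6 Hoxc genes, 3 of 7 Hoxd genes, 3 of 9 Hoxa genes and 0 of 9 Hoxb genes exceeded the bound on both whole testis arrays. By position, this held for 0 of 6 genes with paralog numbers 1 to 3, for 4 of 12 with numbers 4 to 8 and for 6 of 13 with numbers 9 to 13. The 10 genes were Hoxa9, Hoxa11, Hoxa13, Hoxc4, Hoxc6, Hoxc8, Hoxc9, Hoxd8, Hoxd9 and Hoxd10. Some passed narrowly: Hoxc4 had 67.1 and Hoxa13 70.6 in XX/Sry whole testis (bound 63.9), and Hoxa11 82.5 in W/Wv whole testis (bound 76.3). The counts by cluster and position depend on the bound. With the second brightest control (55.6 in XX/Sry and 63.5 in W/Wv whole testis), Hoxa3 (55.9 and 79.6) and Hoxb2 (59.1 and 93.8) passed on both arrays as well. Probe sets differ in how brightly they report the same amount of RNA, so signals of different genes are not ranked, and a gene under the bound may still be expressed at a level that these arrays do not separate from background.

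In the Hoxd cluster, Hoxd8 and Hoxd9 were above the bound on all 4 arrays. Hoxd8, a central Hox factor, had a signal of 191 in XX/Sry tubules and 233.5 in W/Wv tubules, against 1145.7 in XX/Sry whole testis and 423.2 in W/Wv whole testis. Its neighbour Hoxd9, which acts in the lumbar region and the hindlimb, had 247.2 in XX/Sry tubules and 257 in W/Wv tubules, against 841 in XX/Sry whole testis and 500.2 in W/Wv whole testis. The signals were between 3.13 and 17.9 times the bound of their array for Hoxd8 and between 4.05 and 13.2 times for Hoxd9. For both genes each tubule signal was lower than the whole testis signal of the same genotype. Hoxd10, which patterns lumbar motor neurons and the hindlimb, had 73.9 in XX/Sry tubules and 39.1 in W/Wv tubules, against 160.1 in XX/Sry whole testis and 165.3 in W/Wv whole testis. The W/Wv tubule value was under the bound.

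The other measured Hoxd genes were above the bound on 1 array or none. Hoxd11, which with Hoxa11 builds the forearm and the kidney, had 8.9 in XX/Sry tubules and 33.8 in W/Wv tubules, against 89.5 in XX/Sry whole testis and 35 in W/Wv whole testis. It was above the bound in XX/Sry whole testis and on no other array. Hoxd12 and Hoxd13, genes of the digits and external genitalia, had signals between 4.5 and 13.8, and Hoxd1 at the other end of the cluster had 2 to 29.1, under the bound on all 4 arrays. The measured Hoxd genes above the bound on both whole testis arrays were thus Hoxd8, Hoxd9 and Hoxd10. A pair of probe sets that name both Hoxd3 and Hoxd4 was left out of the members.

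The bases before the start of Hoxd8, Hoxd9, Hoxd10 and Hoxa9, 4 of the members that were lower in both tubule samples, are shown beside those of Hoxd13, a member of the same cluster that was under the bound on all arrays. They come from the RefSeq promoter table (build GRCm38.p6), which holds windows for 18 of the 31 genes; each run is 250 bases, ends at the base before the annotated start and is written on the strand of the gene. Capitals mark matches on either strand to 4 motifs: CCAAT (the CCAAT box), TATAAA (the TATA box), TGATTNAT (a site for Pbx with Hox) and AAGGTCA (the site of NR5A1, a nuclear receptor of steroid-producing cells and Sertoli cells). Capitals that run on mark overlapping matches.
Hoxd8 (chr2:74704365-74704614, + strand): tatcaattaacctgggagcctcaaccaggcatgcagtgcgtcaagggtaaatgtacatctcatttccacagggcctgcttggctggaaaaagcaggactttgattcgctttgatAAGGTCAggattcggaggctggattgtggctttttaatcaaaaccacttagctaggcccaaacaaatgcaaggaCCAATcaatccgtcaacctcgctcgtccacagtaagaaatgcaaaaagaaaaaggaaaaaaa
Hoxd9 (chr2:74697513-74697762, + strand): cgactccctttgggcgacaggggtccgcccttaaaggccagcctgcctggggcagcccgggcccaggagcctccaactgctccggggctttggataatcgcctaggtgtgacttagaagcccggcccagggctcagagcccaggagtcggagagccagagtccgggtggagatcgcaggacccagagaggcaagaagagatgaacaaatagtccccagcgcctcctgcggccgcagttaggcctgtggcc
Hoxd10 (chr2:74691641-74691890, + strand): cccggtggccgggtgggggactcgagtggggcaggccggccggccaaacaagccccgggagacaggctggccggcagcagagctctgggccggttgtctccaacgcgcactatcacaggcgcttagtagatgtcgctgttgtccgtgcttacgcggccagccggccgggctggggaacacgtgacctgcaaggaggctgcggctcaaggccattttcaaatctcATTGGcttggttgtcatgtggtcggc
Hoxa9 (chr6:52227371-52227620, - strand): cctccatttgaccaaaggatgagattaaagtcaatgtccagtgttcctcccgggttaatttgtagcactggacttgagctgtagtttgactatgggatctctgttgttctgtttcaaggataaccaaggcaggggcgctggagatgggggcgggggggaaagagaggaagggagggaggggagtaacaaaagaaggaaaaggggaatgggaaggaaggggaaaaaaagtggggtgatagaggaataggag
Hoxd13 (chr2:74667975-74668224, + strand): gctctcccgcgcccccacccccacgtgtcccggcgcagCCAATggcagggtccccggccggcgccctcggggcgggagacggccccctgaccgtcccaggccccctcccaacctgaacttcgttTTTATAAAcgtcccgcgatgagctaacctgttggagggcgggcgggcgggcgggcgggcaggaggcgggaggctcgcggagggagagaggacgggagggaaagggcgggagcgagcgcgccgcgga

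Hoxd8 had a CCAAT match on the gene's strand that ended 57 bases before the start and an AAGGTCA match that ended 129 bases before it. Hoxd10 had a CCAAT match on the opposite strand, 21 bases from the start. Hoxd9 and Hoxa9 had none of the 4 motifs, and Hoxd13 had a CCAAT match and overlapping TATAAA matches on both strands. Over all 32851 windows of the table, 33.8% held CCAAT, 12.4% TATAAA, 2.82% TGATTNAT and 4.08% AAGGTCA. Of the 20 windows of Hox members, 10, 2, 2 and 1 did. CpG dinucleotides numbered 6 in the Hoxd8 window, 13 in Hoxd9, 20 in Hoxd10, 3 in Hoxa9 and 31 in Hoxd13, beside a median of 6 over all windows and of 13 over those of Hox members.

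In the Hoxc cluster the measured genes above the bound were Hoxc4, Hoxc6, Hoxc8 and Hoxc9, and Hoxc10, Hoxc11 and Hoxc12 were not analysed here. Hoxc9, which sets the thoracic identity of motor neurons, had 27.6 in XX/Sry tubules and 25 in W/Wv tubules, against 177.9 in XX/Sry whole testis and 185 in W/Wv whole testis. Its 2 whole testis values differ little, and both tubule values are under the bound. Hoxc8, of the thoracic and brachial region, had 114.4 in XX/Sry tubules and 16.2 in W/Wv tubules, against 187.1 in XX/Sry whole testis and 103.8 in W/Wv whole testis. Hoxc8 was under the bound in W/Wv tubules alone, and XX/Sry was the higher genotype in either preparation. Hoxc6, a thoracic gene also needed in the mammary gland, had 139.4 in XX/Sry tubules and 112.6 in W/Wv tubules, against 269.4 in XX/Sry whole testis and 114.3 in W/Wv whole testis, so that XX/Sry whole testis stood apart. That probe set is of the kind that may cross-hybridise, and the other 2 Hoxc6 probe sets did not share this pattern. One had 61 in XX/Sry and 108.8 in W/Wv tubules, against 166 in XX/Sry and 192.2 in W/Wv whole testis. The other had 6.8 and 54.8 in XX/Sry and W/Wv tubules, against 91.3 and 125.5 in XX/Sry and W/Wv whole testis.

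Hoxc4, a cervical gene also used by activated B lymphocytes, had 32.3 in XX/Sry tubules and 98.3 in W/Wv tubules, against 67.1 in XX/Sry whole testis and 131.5 in W/Wv whole testis. XX/Sry was the lower genotype in both preparations, and its tubule value was under the bound. Hoxc5 and the hair and nail gene Hoxc13 stayed under the bound on all arrays, with 9.8 to 69.3 and 4.4 to 9.8.

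In the Hoxa cluster the genes above the bound in both whole testes had paralog numbers of 9 or more. Hoxa9, known from blood stem cells and the oviduct, had 25.2 in XX/Sry tubules and 43.3 in W/Wv tubules, against 180.6 in XX/Sry whole testis and 174.2 in W/Wv whole testis. Like Hoxc9, it was under the bound in both tubule samples and nearly equal in both whole testes. Its second probe set was above the bound in XX/Sry whole testis and on no other array, with 49.7 in XX/Sry and 40.2 in W/Wv tubules, against 87.1 in XX/Sry and 12 in W/Wv whole testis. Hoxa11, of the uterus, kidney and limb, had 41.5 in XX/Sry tubules and 46 in W/Wv tubules, against 84.7 in XX/Sry whole testis and 82.5 in W/Wv whole testis. Hoxa13, of the limb and genital tubercle, had 88 in XX/Sry tubules and 21.7 in W/Wv tubules, against 70.6 in XX/Sry whole testis and 101.5 in W/Wv whole testis. Hoxa11 was under the bound in both tubule samples, and Hoxa13 in W/Wv tubules alone. Hoxa10, which is needed for testis descent and lies between Hoxa9 and Hoxa11, was under the bound on all arrays, with 34.5 in XX/Sry and 28.2 in W/Wv tubules, against 60.6 in XX/Sry and 23.1 in W/Wv whole testis. Hoxa3, a gene of the thymus and parathyroid, had 58.3 in XX/Sry and 29.4 in W/Wv tubules, against 55.9 in XX/Sry and 79.6 in W/Wv whole testis, and only the last exceeded the bound. Hoxa2, Hoxa4, Hoxa5 and Hoxa7 exceeded it nowhere.

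No Hoxb gene was above the bound on more than 2 arrays. The hindbrain gene Hoxb2 exceeded it in both W/Wv samples, with 79.3 in W/Wv tubules and 93.8 in W/Wv whole testis, and had 39.6 and 59.1 in XX/Sry tubules and whole testis. Hoxb3, its neighbour, exceeded it in both XX/Sry samples, with 70.7 in tubules and 88.2 in whole testis, and had 27.7 and 3.8 in W/Wv tubules and whole testis. Hoxb6 had 21.4 in XX/Sry and 34.4 in W/Wv tubules, against 12.7 in XX/Sry and 84.3 in W/Wv whole testis, and passed in the last alone. Hoxb9 had 59.2 in XX/Sry and 46.2 in W/Wv tubules, against 14.5 in XX/Sry and 69.7 in W/Wv whole testis, and passed in W/Wv tubules alone, by 46.2 to 46.1. Hoxb1, Hoxb4, Hoxb5, Hoxb7 and the prostate gene Hoxb13 passed it on no array. Over the 15 Hox genes that never passed, signals ran from 4.5 to 57.9 in XX/Sry tubules and 2 to 40.5 in W/Wv tubules, and from 3 to 60.6 in XX/Sry whole testis and 4.4 to 74.3 in W/Wv whole testis.

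Tubules were compared with whole testis in each genotype, to see which Hox signals came with the isolated tubules. Hoxa9, Hoxc9 and Hoxd10, all with paralog numbers of 9 or 10, passed the rule of a 2-fold lower signal in tubules of both genotypes. A signal under the bound was raised to the bound of its array, and such a fold is given as a minimum. For Hoxa9 the tubule signal was lower by a factor of at least 2.96 in XX/Sry and at least 3.78 in W/Wv. For Hoxc9 the factors were at least 2.92 in XX/Sry and at least 4.01 in W/Wv. Hoxd10 was 2.17-fold lower in XX/Sry tubules and at least 3.59-fold lower in W/Wv tubules. These 3 of 31 genes (0 were higher) stand beside 2.40% of all genes lower and 0.452% higher by the same rule. After the arrays were centred on their medians the same 3 genes passed. Hoxd10 no longer passed after quantile normalisation or with an offset of 50, and Hoxa9 no longer passed with the mean of its probe sets. With median centring, over all genes the split was 135 higher and 215 lower, against 56 higher and 297 lower as deposited.

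**Figure D2:**
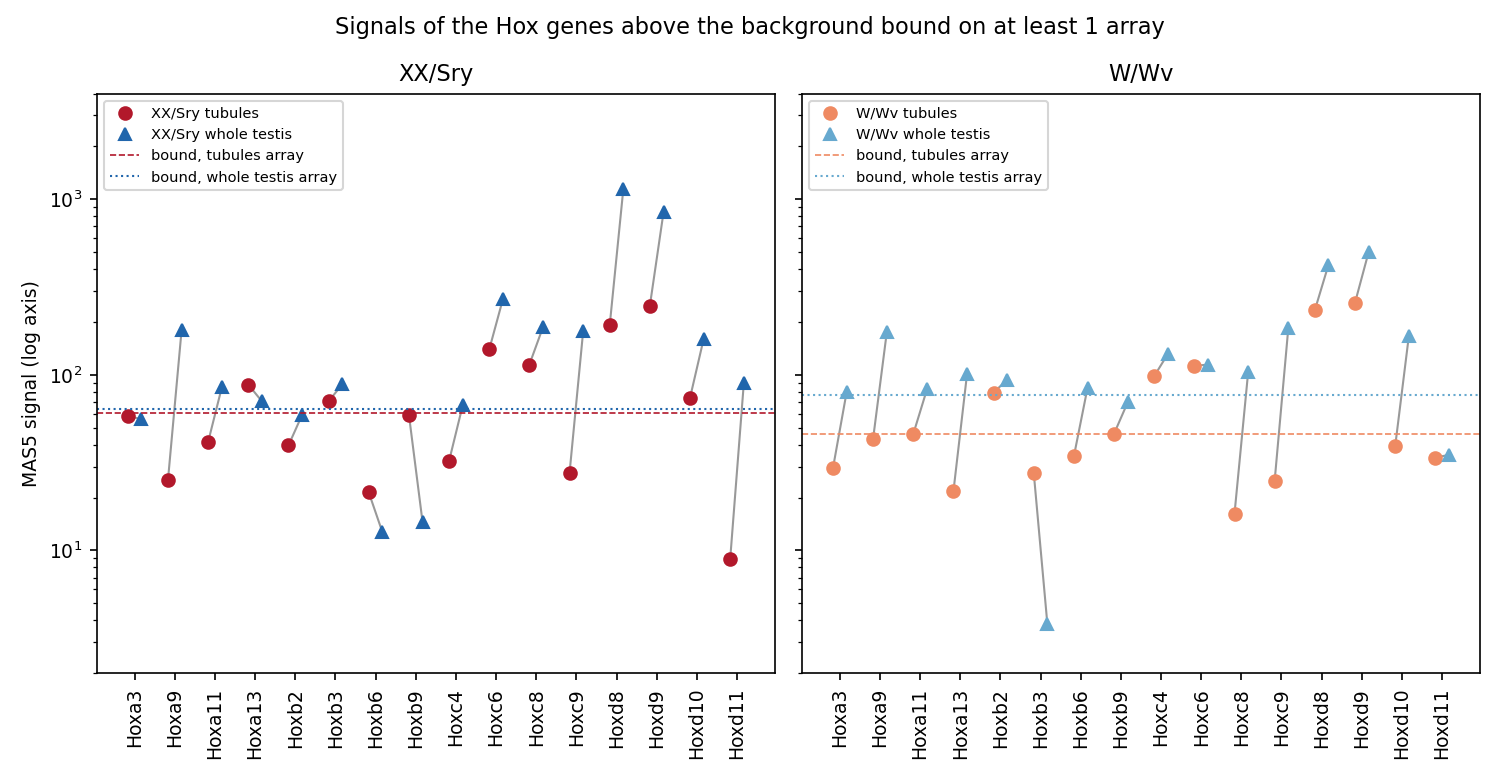
MAS5 signals (log axis) of the 16 Hox genes above the bound on at least 1 array, tubules to the left of whole testis for each gene, XX/Sry in the left panel and W/Wv in the right. Horizontal lines give the bounds of the arrays. Hoxa9, Hoxc9, Hoxd8, Hoxd9 and Hoxd10 have lower points in tubules in both panels, and so do Hoxa11, Hoxb2, Hoxc4, Hoxc6, Hoxc8 and Hoxd11. Some of these points lie under the bound of their array.

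Hoxd8 and Hoxd9 stood just short of the rule in W/Wv. Hoxd8 was 6.0-fold lower in XX/Sry tubules and 1.81-fold lower in W/Wv tubules, and Hoxd9 was 3.40-fold and 1.95-fold lower. Hoxc8 was 1.64-fold lower in XX/Sry tubules and at least 2.25-fold lower in W/Wv tubules. Hoxc6 was 1.93-fold lower in XX/Sry tubules and 1.02-fold lower in W/Wv tubules, and the direction of the last value flipped after median centring or quantile normalisation (log2 ratios of 0.20 and 0.32), while the mean of its 3 probe sets gave -0.68. The other 2 Hoxc6 probe sets were 1.77-fold and 2.29-fold lower in W/Wv tubules. Hoxa13 was 1.25-fold higher in XX/Sry tubules and at least 2.20-fold lower in W/Wv tubules, the one gene with opposite directions among those with a fold in both genotypes.

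Taken by genotype, 5 Hox genes passed 2-fold in XX/Sry, all lower in tubules (Hoxa9, Hoxc9, Hoxd8, Hoxd9 and Hoxd10), beside 6.07% of all genes. In W/Wv there were also 5 (Hoxa9, Hoxa13, Hoxc8, Hoxc9 and Hoxd10), beside 10.6% of all genes. By the deposited signals, noise under the bound included, 21 of 31 Hox genes were lower in XX/Sry tubules and 27 of 31 in W/Wv tubules. Over all 12393 genes, 6321 and 7243 were. The median log2 ratios of the Hox genes were -0.71 and -0.86, against -0.02 and -0.15 over all genes. The 15 Hox genes that passed the bound on no array had medians of -0.37 and -0.83, with 9 and 12 of 15 below 0. Signals of these 15 genes were not separated from background. The bound itself was 63.9 and 61 in whole testis and tubules of XX/Sry, and 76.3 and 46.1 in those of W/Wv. Most of all genes were above the bound, so they are no like set for the Hox genes. Median centring moved all ratios of this comparison by 0.11 in XX/Sry and 0.22 in W/Wv, and the Hox medians became -0.60 and -0.64, with 21 and 24 of 31 below 0. After quantile normalisation they were -0.46 and -0.38, with 21 of 31 below 0 in either genotype.

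A fit of genotype and preparation over the 4 arrays gave the only error. It has 1 residual degree of freedom, takes the arrays as independent and counts any interaction as error. Tested with limma over 22626 probe sets, 0.977% were lower and 0.239% higher in tubules at an adjusted p under 0.05, and 0 of 31 Hox genes were among them. The smallest adjusted p-values belonged to Hoxd8 (log2 ratio -1.72 ± 0.41 SE, adjusted p = 0.0759 with limma), Hoxd9 (-1.36 ± 0.33, adjusted p = 0.0816) and Hoxc9 (-2.79 ± 0.68, adjusted p = 0.0844). Hoxa9 had -2.42 ± 0.66 and an adjusted p of 0.121, and Hoxd10 had -1.60 ± 0.61 and 0.270. All 5 were lower in both genotypes. At an unadjusted p under 0.05, 6 of the 31 passed, Hoxc8 being the sixth, beside 13.9% of all probe sets.

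Markers of some cells between the tubules were lower on the same arrays, and those of others were not. Of 10 interstitial fibroblast markers 9 were lower by 2-fold or more in XX/Sry tubules, as were 4 in W/Wv tubules. Pdgfra and Col1a1 went the other way in W/Wv, 1.55-fold and 1.32-fold higher in tubules. The summed signal of the 10 markers was 6325 in XX/Sry and 10610.5 in W/Wv tubules, against 26006.3 in XX/Sry and 20059.2 in W/Wv whole testis. Leydig cell markers summed to 23011.9 in XX/Sry and 9204.2 in W/Wv tubules, against 59936 in XX/Sry and 36886.5 in W/Wv whole testis, and 5 of 6 were 2-fold lower in both genotypes. Of 9 macrophage markers 8 were. Of 8 endothelial markers, 6 had higher signals in XX/Sry tubules and 7 in W/Wv tubules (median log2 ratios of 0.59 and 0.52), and Vwf alone was 2-fold higher in both. Germ cells are not cells between the tubules, yet all 11 of their markers had lower signals in W/Wv tubules than in W/Wv whole testis. Of these, 9 were lower by 2-fold or more (median log2 ratio -2.14), led by Prm1 at a factor of at least 33.5. The germ cell median in XX/Sry was 0.19. The 2 W/Wv arrays thus differed in germ cell signal as well as in preparation, which limits every W/Wv fold of tubules against whole testis. Further, 0 of 12 Sertoli and 0 of 8 peritubular myoid and smooth muscle markers were 2-fold lower in either genotype. None of these markers is a Hox gene, and the part of these cells in the Hox values was not tested. In whole tissue, fewer cells of a type and less RNA per cell cannot be told apart.

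**Figure D3:**
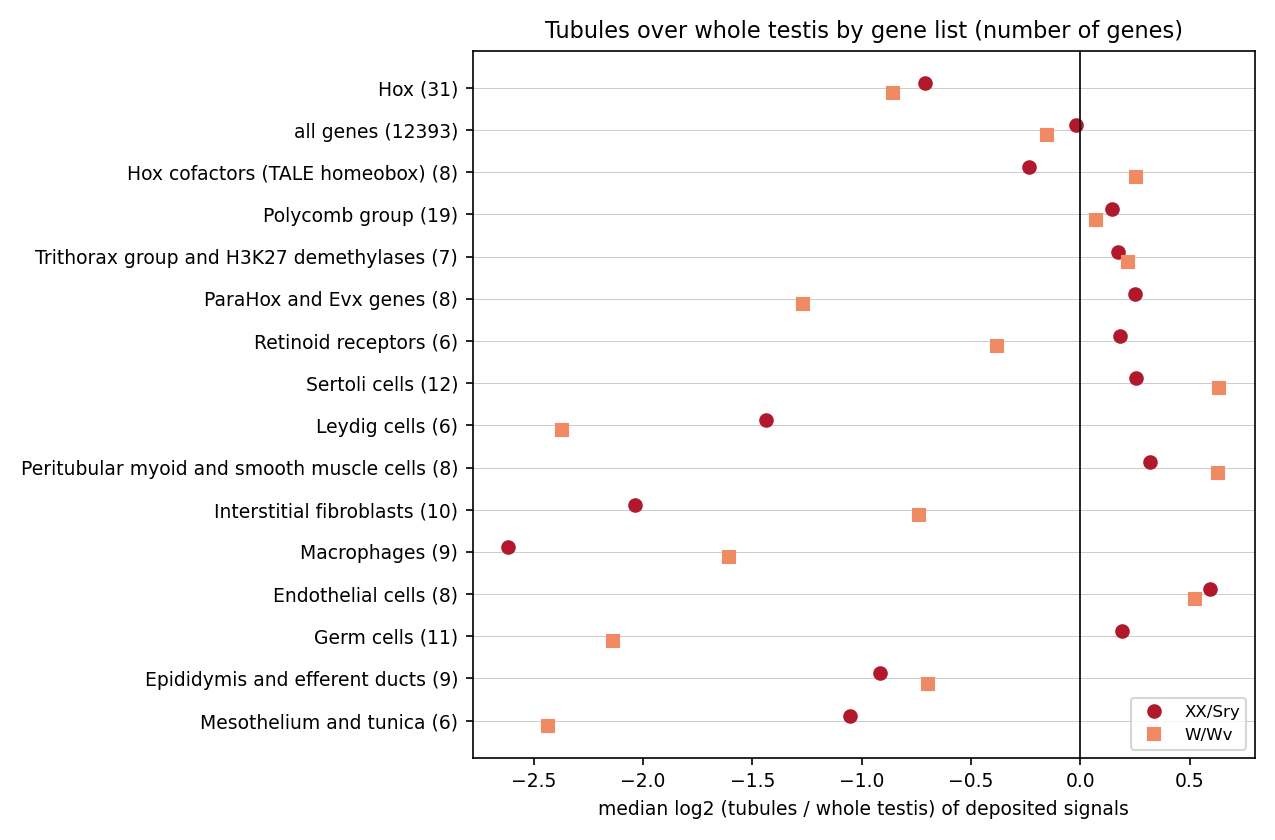
Median log2 ratio of tubules over whole testis for the Hox genes, all genes and each gene list, with the number of genes in brackets and 1 point per genotype. The Hox medians (-0.71 in XX/Sry and -0.86 in W/Wv) lie left of those of all genes. In both genotypes so do the Leydig, fibroblast, macrophage, epididymis (-0.91 and -0.70) and mesothelium (-1.05 and -2.43) lists. Germ cell, ParaHox and retinoid receptor lists lie left of all genes in W/Wv only, and the TALE list in XX/Sry only. Sertoli, peritubular, endothelial, Polycomb and trithorax medians lie right of 0. The 15 Hox genes under the bound on all arrays have medians of -0.37 and -0.83.

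Tissue from outside the testis was checked as well, since Hoxa9 to Hoxa13 are genes of the genital ducts. Of 9 markers of epididymis and efferent ducts, 0 were above the bound on both whole testis arrays, and Lcn5 and Cldn8 were above it on none. On single arrays 1 was above it in XX/Sry tubules, 5 in W/Wv tubules, 3 in XX/Sry whole testis (Lcn8, Cst11 and Pax8) and 2 in W/Wv whole testis (Adam7 and Aqp9). Their summed signal was 298.2 in XX/Sry and 435.1 in W/Wv tubules, against 437 in XX/Sry and 543 in W/Wv whole testis. Upk3b, a mesothelial gene, had 8.4 in XX/Sry and 6.6 in W/Wv tubules, against 167.3 in XX/Sry and 104 in W/Wv whole testis. It was the 1 of 6 mesothelium and tunica markers that was 2-fold lower in both genotypes. Of the 6, 4 had lower signals in XX/Sry tubules and 5 in W/Wv tubules. Krt18 went the other way, 1.55-fold higher in XX/Sry tubules and at least 1.18-fold higher in W/Wv tubules. Krt19 had 64.1 in XX/Sry and 5.6 in W/Wv tubules, against 49.6 in XX/Sry and 93.3 in W/Wv whole testis.

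XX/Sry was then compared with W/Wv, the genotypes whose testicular environment the study set against each other. No Hox gene was 2-fold higher or 2-fold lower in both preparations, beside 0.767% of all genes higher and 0.484% lower. In whole testis Hoxd8 was 2.71-fold and Hoxc6 2.36-fold higher in XX/Sry, which made 2 of 31 higher, beside 2.95% of all genes. The Hoxc6 value rests on the probe set that may cross-hybridise: the other 2 were 1.16-fold and 1.37-fold lower, and the mean of the 3 gave log2 ratios of -0.52 in tubules and 0.19 in whole testis. In tubules the same probe sets gave 1.22-fold lower for Hoxd8 and 1.24-fold higher for Hoxc6. Hoxc8 alone passed in tubules (at least 2.48-fold higher, 1 of 31, beside 4.74% of all genes) and was 1.80-fold higher in whole testis. At 2-fold, 0 Hox genes were lower in either preparation, beside 2.74% of all genes in tubules and 4.35% in whole testis.

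**Figure D4:**
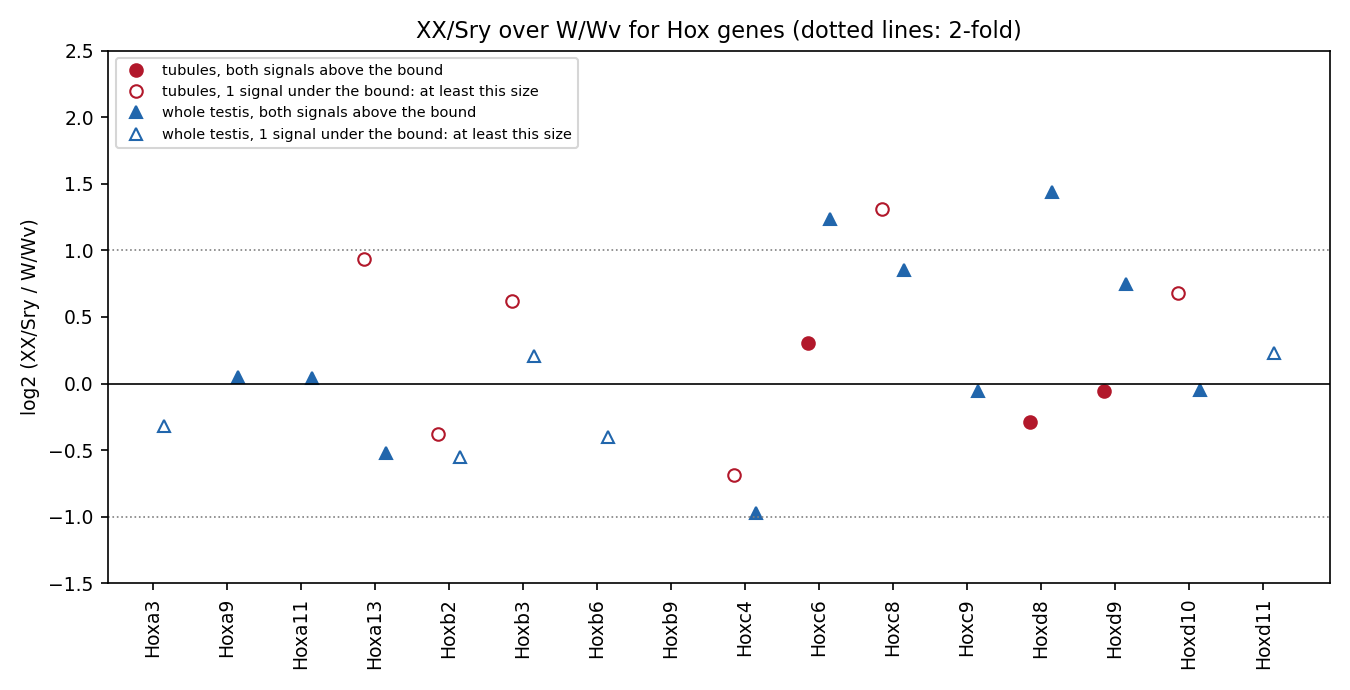
Log2 ratio of XX/Sry over W/Wv in tubules (circles) and whole testis (triangles) for the 16 Hox genes above the bound on at least 1 array. Filled points have both signals above the bound, and open points are minimum sizes. Dotted lines mark 2-fold: Hoxc6 and Hoxd8 pass it in whole testis and Hoxc8 in tubules, and genes under the bound on both arrays of a pair have no point.

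Some members differed little between the genotypes in whole testis. Hoxa9 was 1.04-fold higher, Hoxa11 1.03-fold higher, Hoxc9 1.04-fold lower and Hoxd10 1.03-fold lower in the XX/Sry sample, and the last 2 turned to the other side of 0 after median centring. For Hoxa9 the mean of its probe sets gave a log2 ratio of 0.72. Hoxd9 was 1.04-fold lower in XX/Sry tubules and 1.68-fold higher in whole testis of that genotype. For Hoxc4 the XX/Sry signal was lower by a factor of at least 1.61 in tubules and 1.96 in whole testis. Hoxd10 was at least 1.60-fold higher in XX/Sry tubules. The 31 genes had a median log2 ratio of 0.20 in tubules and -0.05 in whole testis, where all genes had -0.00 and -0.10, and 18 and 15 of 31 ratios were above 0.

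The limma fit called 0 of 31 Hox genes between genotypes, beside 0.110% of 22626 probe sets higher and 0.0398% lower in XX/Sry. The 2 Hox genes with an unadjusted p under 0.05 were Hoxb3 (log2 ratio 2.94 ± 1.05 SE, adjusted p = 0.434) and Hoxc8 (1.84 ± 0.71, adjusted p = 0.492), beside 8.74% of all probe sets. Both were higher in XX/Sry in both preparations, but Hoxb3 rests on W/Wv signals under the bound, and against the bound it was at least 1.53-fold higher in tubules and at least 1.16-fold higher in whole testis. Interstitial markers differed between genotypes as well. The summed signal of fibroblast markers was 6325 in XX/Sry and 10610.5 in W/Wv tubules, while whole testis had 26006.3 in XX/Sry and 20059.2 in W/Wv. Germ cell markers summed to 1042.2 in XX/Sry and 1022.2 in W/Wv tubules, and to 1090 in XX/Sry and 5620.3 in W/Wv whole testis. The near-equal tubule sums hide opposite members. Of 11 germ cell markers 7 had a fold in tubules, 4 lower and 3 higher in XX/Sry. Sall4 was at least 2.66-fold lower and Prm1 at least 3.37-fold higher. The part of the interstitial and germ cell markers in the Hox values was not tested.

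Genes that act with the Hox proteins or on their clusters passed the rule in neither comparison. Of 8 TALE cofactor genes measured of 9 listed, 0 passed 2-fold in both pairs, and the median log2 ratio of tubules over whole testis was -0.24 in XX/Sry and 0.26 in W/Wv. Pknox1, which binds DNA with Pbx, had 531.7 in XX/Sry and 498.7 in W/Wv tubules, against 219.7 in XX/Sry and 260.8 in W/Wv whole testis, 2.42-fold and 1.91-fold higher in tubules. Meis1, a partner of Hoxa9, had 289.4 in XX/Sry and 303.5 in W/Wv tubules, against 179.4 in XX/Sry and 165.5 in W/Wv whole testis, 1.61-fold and 1.83-fold higher. Pknox1 and Meis1 thus had higher signals in tubules of both genotypes, without reaching the rule, and Pbx4 and Meis2 were under the bound on all arrays.

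Polycomb proteins keep Hox genes silent and trithorax proteins keep them active. Of 19 Polycomb genes (23 listed) and 7 trithorax and demethylase genes (10 listed), 0 passed 2-fold in both pairs of either comparison. Above the bound on all 4 arrays were 17 of 19 and 7 of 7, beside 8065 of all 12393 genes. Rbbp4, a histone-binding subunit, was 1.29-fold higher in XX/Sry tubules and 1.33-fold higher in W/Wv tubules than in whole testis, and Rbbp7, its close relative, was 1.24-fold higher and 1.73-fold lower. Against W/Wv, Rbbp7 was 1.11-fold higher in tubules and 1.94-fold lower in whole testis of XX/Sry males. Wdr5 of the trithorax complexes was lower in XX/Sry, 1.63-fold in tubules and 1.90-fold in whole testis, and Dpy30 was 1.18-fold and 1.09-fold higher. Relatives of the Hox genes were mostly under the bound. Among 8 ParaHox and Evx genes, Cdx1, Cdx2, Cdx4, Gsx1 and Evx1 were above it on no array, and Evx2, which lies beside Hoxd13, was above it on all 4, with 115.8 in XX/Sry and 63.4 in W/Wv tubules, against 85.4 in XX/Sry and 173.3 in W/Wv whole testis.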

How the data were processed

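The authors' deposited values are array intensity, given as MAS5 signals on a linear scale; MAS5 is named in the submitters' processing notes, and Affymetrix software and 16 hours of hybridisation in the series' design text. The mean without the lowest and highest 2% of signals was near 500.2 on each array, so each array had its own scale factor. Detection calls were not used here, and the number of arrays limits the precision. The signals were used as deposited, and no further background correction was applied here. Of 22690 probe sets, 64 controls were set aside; 20380 of the other 22626 had 1 gene symbol, 691 several and 1555 none. Entrez identifiers in the RefSeq table changed 0 symbols, and 0 columns of values were left unused.

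Folds were computed between single arrays, each signal under the brightest unspiked bacterial control of its array being raised to it, and no fold is given where both signals were under the bound or where the raised signal was the higher one. A gene was called at 2-fold in both pairs of a comparison, the definition in the design text. The additive fit used limma 3.58.1 in R 4.3.3 (log2 signals, variance trend, two-sided, Benjamini-Hochberg adjustment over 22626 probe sets) and was tested on simulated data. Named were all Hox genes above the bound on at least 1 array and, of the cofactor and regulator lists, the 2 brightest genes and those called. The members and lists were chosen with earlier results of these data known. Protein sequences of the members were not used here. Alternatives were other scalings, bounds, offsets, probe set choices and thresholds.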

Additional observations from a re-analysis of the deposited data

Results flagged for a closer look

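The following signals come from probe sets that are no members, and they exceeded the bound of their array. A probe set that names both Hoxd4 and Hoxd3 had 75.8 in XX/Sry whole testis (bound 63.9) and 82.4 in W/Wv whole testis (bound 76.3), and 55.5 in XX/Sry tubules and 19.5 in W/Wv tubules, where it was under the bound. A probe set of Hoxa11os, the antisense transcript beside Hoxa11, had 57.8 in W/Wv tubules (bound 46.1) and was under the bound on the other arrays. No group had the 4 or more samples that a search for outlying samples needs.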

How the results depend on the processing

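Replicates could not be paired, since each group had 1 array, and the additive fit takes the other factor as a block. For the same reason no array could be left out of a fit without ending it, and the pairs of each genotype or preparation stand in the report instead. The 3 Hox genes lower in tubules were 3 after median centring and with the second brightest control as the bound, and 3 with the higher bound of each pair, an alternative added after seeing the data. They were 2 with an offset of 50 or quantile normalisation (Hoxa9 and Hoxc9), 2 with the mean of all probe sets (Hoxc9 and Hoxd10), 4 with no bound, 6 at 1.5-fold (Hoxa9, Hoxc8, Hoxc9, Hoxd8, Hoxd9 and Hoxd10) and 0 among the 3 Hox genes above the bound on all 4 arrays. Between genotypes the count of 0 became 4 with no bound (Hoxa4, Hoxa5, Hoxb3 and Hoxc5, all of which have signals under the bound), 2 at 1.5-fold (Hoxc4 lower, Hoxc8 higher) and 1 after quantile normalisation (Hoxc8). Over all genes, no bound gave 245 higher and 399 lower between genotypes, against 95 and 60, and 163 higher and 711 lower between preparations, against 56 and 297; 1.5-fold gave 357 and 343, and 418 and 855. With the second brightest control, 11 Hox genes in place of 7 were above the bound in XX/Sry tubules, and 7 in place of 6 in W/Wv tubules. In whole testis it was 15 in place of 12 in XX/Sry and 16 in place of 13 in W/Wv. With the median control 25 were above it in XX/Sry tubules and 21 in W/Wv tubules, and 21 in whole testis of XX/Sry and 23 of W/Wv. The limma fit called 0 Hox genes under every alternative tried; without the variance trend it called 0 of 22626 probe sets in either comparison (1489 and 1961 at an unadjusted p under 0.05), and after quantile normalisation 57 higher and 19 lower between genotypes, against 25 and 9. The smallest adjusted p of a Hox gene between preparations lay between 0.0617 (quantile normalisation) and 0.544 (no trend). Of 304 recomputed ratios of single Hox genes 8 changed direction, none of them a called value, and 24 moved by 1.5-fold or more. The 304 leave out ratios that had no fold under an alternative, so a lost value does not count as a change. Hoxa9 in W/Wv tubules against whole testis, a called value, was lost in this way with the mean of its probe sets. The cause of these changes was not tested, apart from the lower thresholds and bounds, which admit more genes.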

Other observations

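Retinoic acid is a known inducer of Hox genes, and its receptor genes were measured on the same arrays. Of 6 retinoid receptor genes, 0 passed 2-fold in both pairs of either comparison, beside the small shares of all genes given above. Rxrb had 1110.5 in XX/Sry and 981.6 in W/Wv tubules, against 948.5 in XX/Sry and 1174.7 in W/Wv whole testis. Rxra had 66.7 in XX/Sry tubules and 223.2 in W/Wv tubules, against 339.3 in XX/Sry whole testis and 315.8 in W/Wv whole testis. It was 5.09-fold lower in XX/Sry tubules and 1.41-fold lower in W/Wv tubules than in whole testis of the same genotype.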
